A study of Mus musculus with 2 samples.

Results

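The 8 genes described here encode CXC chemokines, small secreted proteins named for the pair of cysteines separated by a single residue near the start of the mature protein. They were taken by symbol as a fixed list (Cxcl1, Cxcl2, Cxcl3, Cxcl5, Cxcl9, Cxcl10, Cxcl11 and Cxcl16), and all 8 were found among the 55536 annotated gene entries of the tables. The rule that chose them is a list of symbols and uses no measured value, but the list was made with earlier results of these data known. The libraries hold ribosome-depleted total RNA from the nucleoplasm of C57BL/6J bone-marrow-derived macrophages, primary cells grown out of marrow, that had been exposed for 60 min to Lipid A at 100 ng/ml. Lipid A is the part of bacterial lipopolysaccharide that TLR4 senses. There is 1 group of 2 libraries, labelled biological replicates 1 and 2, so no untreated, earlier or later sample and no other fraction is analysed here, and no level can be called induced. The replicates came from separate biosamples under the same donor label, with 1 µg of starting RNA for replicate 1 and 500 ng for replicate 2. No test between conditions exists, and no p-value is given.

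CXC chemokines steer leukocytes through G-protein-coupled receptors. Members with the residues glutamate, leucine and arginine (ELR) just before the first cysteine of the motif bind CXCR2 and draw neutrophils, whereas CXCL9, CXCL10 and CXCL11 bind CXCR3 and draw activated T cells and NK cells. CXCL16 is made as a membrane-anchored protein that is shed by ADAM proteases and binds CXCR6. In macrophages that sense lipopolysaccharide, the ELR genes are known as targets of NF-κB with unstable mRNAs rich in AU elements, and Cxcl10 as a target of NF-κB and interferon regulatory factors.

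The gene tables held 21256531 expected counts in replicate 1 and 15643649 in replicate 2. Genes of the mitochondrial genome took 5.1% and 6.17% of TPM (transcripts among a fixed total, a level per length), and coding genes of the nuclear genome took 25.4% and 18.8%. Over the 8622 coding genes at 1 TPM or more in each library, the median log2 TPM ratio of replicate 1 over replicate 2 was 0.42, so most TPM values were higher in replicate 1. All 10 macrophage markers reached 1 TPM in each library, with a sum of 4179 and 3696 TPM and Lyz2 highest. Summed TPM was 4.69 and 2.72 for 8 neutrophil markers (Ltf highest), 1.57 and 1.77 for 6 of megakaryocytes and platelets (Itga2b), and 2.84 and 3.29 for 6 of dendritic cells (Xcr1). It was 5.27 and 2.52 for 5 endothelial markers (Kdr), 0.42 and 0.45 for 5 of B cells (Cd79b), 0.22 and 0.27 for 6 of fibroblasts (Col1a2), and 0.01 and 0.05 for 5 epithelial markers (Cdh1). These sums are those of the gene table. All 5 markers of T and NK cells were at 0 counts there in both libraries. The second transcript table, a separate quantification of the same libraries, gave Cd3d 299.9 and 381.8 estimated counts and Cd3g 22.41 and 19.09. Markers of other lists also rose there: Ms4a1 of B cells from 6 and 2 counts to 262 and 134.3, and Gp6 of platelets from 6 and 5 to 124 and 150.1. Col1a1 of fibroblasts rose from 7 and 8 to 122.2 and 89.44. Others changed little, such as Cd79b, from 6 and 3 to 6 and 6. The low sums therefore depend on the table.

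The sequence that tells the ELR members from the others lies in the coding part of each member. The windows shown are 6 codons of the GENCODE M21 transcripts of the same mm10 assembly, read 5′ to 3′, with the 3 codons before the first cysteine of the motif in capitals and the C-x-C codons in lower case.
Cxcl1: GAGCTGCGCtgtcagtgc
Cxcl2: GAACTGCGCtgtcaatgc
Cxcl3: GAGCTGCGCtgtcagtgc
Cxcl5: GAGCTGCGTtgtgtttgc
Cxcl9: AATGCACGAtgctcctgc
Cxcl10: ACGGTCCGCtgcaactgc
Cxcl11: CAGGGGCGCtgtctttgc
Cxcl16: GCTGGAAGTtgttcttgt
The capitals spell glutamate, leucine and arginine in Cxcl1, Cxcl2, Cxcl3 and Cxcl5, and other residues in the other 4. The windows of Cxcl1 and Cxcl3 were identical. Over whole coding sequences Cxcl2 and Cxcl3 were 89.7% identical, Cxcl1 and Cxcl2 75.7%, and Cxcl1 and Cxcl3 72.7%. Cxcl5 shared 47.9% to 48.9% with those 3 genes, Cxcl10 and Cxcl11 shared 54.0%, and Cxcl9 and Cxcl10 shared 44.3%. Cxcl16 stood apart, with 28.0% to 35.9% and a coding sequence of 246 codons, against 96 to 132 codons for the others.

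Among the ELR members, Cxcl2 and Cxcl1 were abundant, Cxcl3 was low, and Cxcl5 was at the limit of detection. Cxcl2 (chr5:90903871-90905938, plus strand), also known as MIP-2 and a major neutrophil attractant of mouse macrophages, had 909.18 TPM in replicate 1 and 662.52 TPM in replicate 2. Its mean was 785.8 ± 174.4 TPM (SD, n = 2), and it ranked 15th and 16th of 22015 coding genes. In a bulk sample such as this, fewer expressing cells and less RNA per cell cannot be told apart. Cxcl1 (chr5:90891241-90893115, plus strand), or KC, which acts on the same receptor, had 283.92 and 214.54 TPM in replicates 1 and 2, a mean of 249.2 ± 49.06 TPM (SD, n = 2). It ranked 126th and 118th, which places 99.4% and 99.5% of coding genes at a lower TPM.

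Cxcl3 (chr5:90786103-90789600, plus strand), the closest relative of Cxcl2 in coding sequence, had 6.59 and 3.87 TPM in replicates 1 and 2, a mean of 5.23 ± 1.923 TPM (SD, n = 2). These levels rest on 234.22 and 140.1 expected counts, and 77.8% and 74.8% of coding genes had a lower TPM. Exact words shared by the 2 genes were few: 7.59% of the distinct 31-base words of Cxcl2 transcripts also occur in another gene, which is Cxcl3 in every case. For Cxcl3 5.46% of words occur in another gene on the same strand. The posterior SD that the authors deposited for the expected counts, which measures uncertainty in assigning reads, was 0.45 and 0.32 counts for both genes.

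Cxcl5 (chr5:90759360-90761624, plus strand), known as LIX and made mainly by epithelial cells, had 1 expected count in replicate 1 and 0 in replicate 2. That is 0.03 TPM in replicate 1 and 0 TPM in replicate 2, where the limit set by no count is 3 counts, or 0.192 CPM (counts scaled to a fixed library total, with no division by length). Cxcl5 was therefore not separable from absence at this depth in the gene table. Intervals and floors here cover counting error only, since the reads carry no molecular identifiers and may copy the same molecule.

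Of the CXCR3 ligands only Cxcl10 was abundant. Cxcl10 (chr5:92346638-92348889, minus strand), or IP-10, had 197.6 TPM in replicate 1 and 191.4 TPM in replicate 2, a mean of 194.5 ± 4.384 TPM (SD, n = 2). It ranked 203rd and 138th of coding genes. Cxcl11 (chr5:92359544-92365485, minus strand), or I-TAC, had 1.09 and 0.7 TPM in replicates 1 and 2, from 44 and 23 counts with exact 95% Poisson intervals of 31.97 to 59.07 and 14.58 to 34.51. GENCODE M21 types the gene as a polymorphic pseudogene, and the C57BL/6 strain is known to lack the protein. Cxcl9 (chr5:92321347-92328079, minus strand), or MIG, a classical target of interferon gamma, had 0.22 and 0.51 TPM from 3 and 5 counts, with intervals of 0.6187 to 8.767 and 1.623 to 11.67. Of this level, 0.18 and 0.46 TPM lay in a retained-intron transcript with an effective length of 166.4 and 156.6 bases and only 0.73 and 1.66 counts, and 0.03 and 0.05 TPM in the coding one. The intervals of the Cxcl9 counts overlap, so its 2 levels cannot be told apart at this depth.

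Cxcl16 (chr11:70453983-70459984, minus strand), the single member outside the chromosome 5 clusters, had 133.81 TPM in replicate 1 and 103.51 TPM in replicate 2. The mean was 118.7 ± 21.43 TPM (SD, n = 2), with ranks of 320 and 301. It was the lowest of the 4 abundant members in both libraries.

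Set against all coding genes in the gene table, 4 of the 8 members (Cxcl1, Cxcl2, Cxcl10 and Cxcl16) reached 100 TPM in each library, where 1.39% of the 22015 coding genes did. Adding Cxcl3 gives 5 of 8 at 1 TPM or more in each, where 39.2% of coding genes passed. Cxcl11 passed 1 TPM in replicate 1 alone. These calls depend on the table. In the second transcript table only Cxcl2 reached 100 TPM in each library, at 292.2 and 321.1. Cxcl1 was there at 95.66 and 106.8 TPM, Cxcl10 at 62.62 and 88.43, and Cxcl16 at 63.69 and 62.43. Cxcl11 passed 1 TPM in each library there, at 1.385 and 1.191, and Cxcl5 in replicate 2 alone, at 1.251. The share of coding genes passing was not counted in that table. Since the members were listed with earlier results of these data known, the shares given are a description only.

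**Figure D1:**
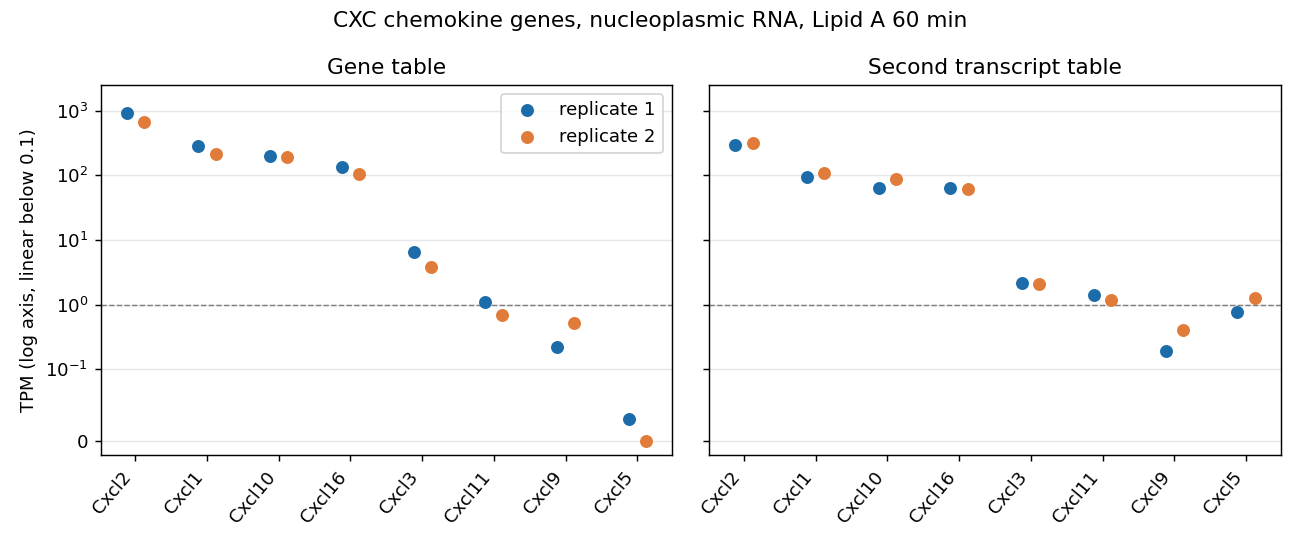
TPM of the 8 members in replicate 1 (blue) and replicate 2 (orange), in the gene table at the left and summed per gene from the second transcript table at the right. The vertical axis is logarithmic above 0.1 and linear under it, and the dashed line marks 1 TPM. In the gene table Cxcl2, Cxcl1, Cxcl10 and Cxcl16 lie above 100 TPM in both libraries, and Cxcl5 lies at 0.03 and 0; in the second table Cxcl5 lies at 0.7616 and 1.251.

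The order of TPM was the same in both libraries, Cxcl2, Cxcl1, Cxcl10, Cxcl16, Cxcl3, Cxcl11, Cxcl9 and Cxcl5, from high to low. Neighbours were compared within each library as a difference of log2(TPM + 1), which understates differences among low genes. Cxcl2 exceeded Cxcl1 by 1.68 in replicate 1 and 1.62 in replicate 2, a mean of 1.65 ± 0.04 (SD, n = 2) or 3.136-fold, the steadiest of the 7 gaps. Cxcl1 exceeded Cxcl10 by 0.52 in replicate 1 and by 0.16 in replicate 2, a mean of 0.34 ± 0.25. That mean is only a little larger than its SD, although Cxcl1 stood above Cxcl10 in both libraries. Cxcl10 exceeded Cxcl16 by 0.72 ± 0.23, but the order of these 2 genes was the least certain among the abundant members. With no division by length, Cxcl10 had 239.7 CPM against 304.1 CPM for Cxcl16 in replicate 1, and 310.4 against 300.1 CPM in replicate 2, and the mean difference in log2(CPM + 1) was -0.15. In the second transcript table Cxcl10 had 62.62 TPM against 63.69 TPM for Cxcl16 in replicate 1, and 88.43 against 62.43 TPM in replicate 2.

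The widest gap, 4.29 ± 0.19 or 19.52-fold, separated Cxcl16 from Cxcl3 and split the members into 4 abundant and 4 low genes. Cxcl3 exceeded Cxcl11 by 1.69 ± 0.24, and by 0.45 when the second transcript table was used. The last gaps, 0.47 ± 0.43 for Cxcl11 over Cxcl9 and 0.42 ± 0.25 for Cxcl9 over Cxcl5, have the same sign in both libraries. The intervals of the counts of Cxcl9 and Cxcl5 overlap, however, and their order cannot be told apart at this depth.

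Cxcl2 alone held 59.3% of the summed TPM of the family in replicate 1 and 56.3% in replicate 2. Cxcl1 held 18.5% and 18.2%, Cxcl10 12.9% and 16.3%, and Cxcl16 8.73% and 8.79%, and the other 4 together made up the small remainder. The shares of Cxcl1 and Cxcl16 were nearly equal between libraries. Shares of a fixed sum are not independent of each other.

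As groups, the 4 ELR members had a median log2(TPM + 1) of 5.28 and the 3 CXCR3 ligands one of 0.91 (means of both libraries), a difference of 4.36 ± 0.16 (SD, n = 2). With only members at 1 TPM or more in each library, a single CXCR3 ligand is left, and the difference of 0.34 ± 0.25 is that of Cxcl1 and Cxcl10 above. Each group held abundant and near-absent genes.

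The arrangement on chromosome 5 (mm10) gives a view of how level changed over short distances. Cxcl1 and Cxcl2, both abundant, lie 10.8 kb apart at one end of the ELR cluster, while Cxcl3 lies 102 kb from Cxcl1 and Cxcl5 a further 24.5 kb away. Between Cxcl5 and Cxcl3 lies Pf4, a platelet chemokine, with 27.44 TPM in replicate 1 and 37.56 TPM in replicate 2. Pf4 thus had a higher TPM than Cxcl3 in both libraries, from 234 and 290 counts. Markers of megakaryocytes and platelets summed to 1.57 and 1.77 TPM in the gene table, though Gp6 among them had more counts in the second transcript table. The part of such cells in the Pf4 level was not tested. Ppbp, also between Cxcl5 and Cxcl3, had 0.42 and 0.55 TPM, and Cxcl15, between Cxcl3 and Cxcl1, was at 0 counts in the gene table in both libraries, against 97.4 and 90.89 estimated counts in the second transcript table.

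The nearest coding genes outside this cluster were low: Rassf6 had 0 and 0.03 TPM and Mthfd2l 2.55 and 2.15 TPM in replicates 1 and 2. In the CXCR3 ligand cluster, Cxcl10 lies 18.6 kb from Cxcl9 and 10.7 kb from Cxcl11, and it was the only one of the 3 above 2 TPM. The flanking genes there were Sdad1, with 4.23 and 2.32 TPM, and Nup54, with 29.25 and 21.35 TPM. Cxcl16 overlaps Zmynd15 and lies between Med11, with 10.54 and 5.8 TPM, and Tm4sf5, with 0.52 and 0.51 TPM. The abundant members stood above every coding gene named beside them. They were called abundant for their own TPM, and only 1.39% of coding genes reached 100 TPM in each library. The comparison therefore says nothing particular about these places.

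**Figure D2:**
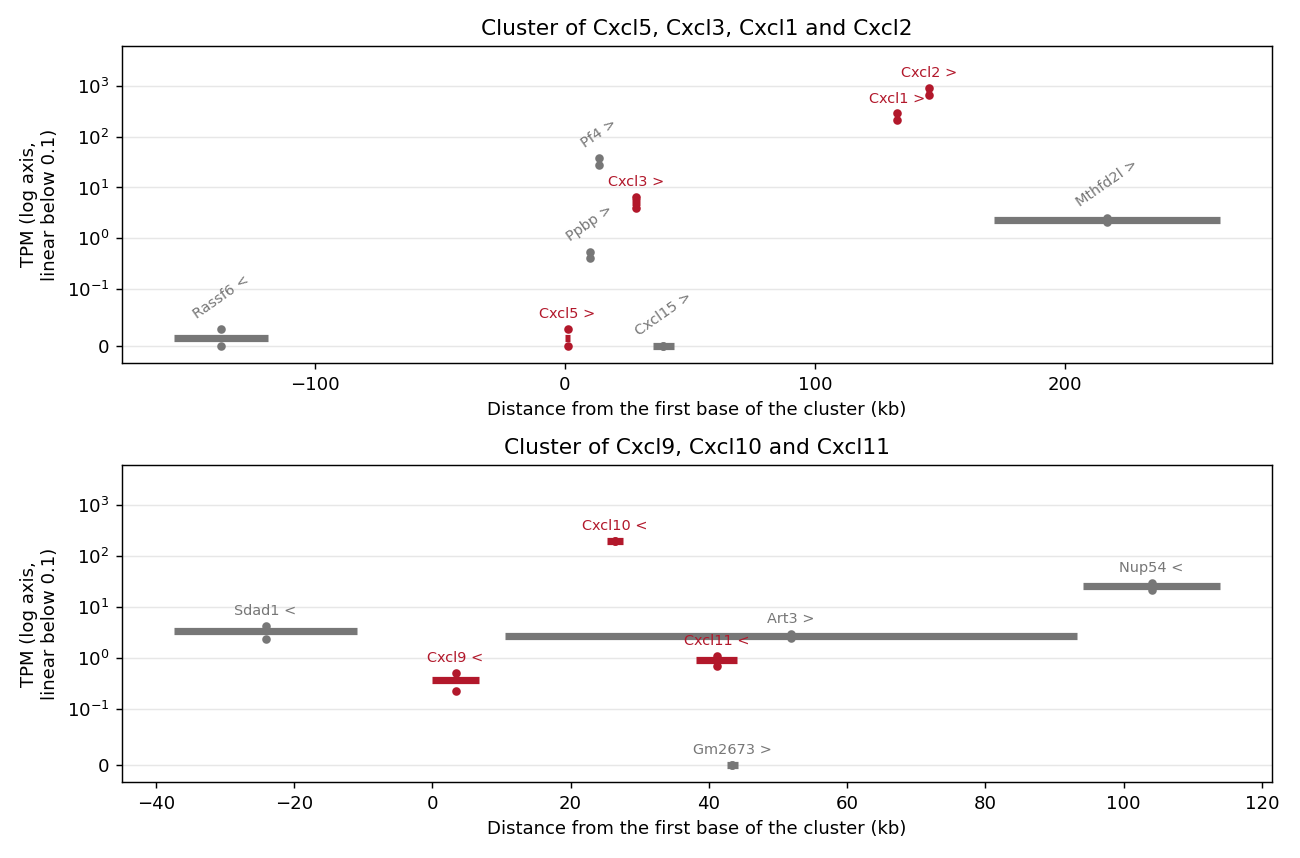
The chromosome 5 clusters of ELR members (top) and CXCR3 ligands (bottom), with distance from the first base of the cluster in kb across and TPM up (logarithmic above 0.1, linear under it). Each bar spans a gene at its mean TPM, points are the 2 libraries, red marks members, grey marks neighbouring genes, and > and < give the strand. Cxcl2 at 785.8 and Cxcl1 at 249.2 TPM stand at the right end of the top panel, and Cxcl10 at 194.5 TPM stands above Cxcl9 and Cxcl11 in the lower panel.

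Some members share their bases with genes on the opposite strand, and the strand setting of the counting is not given in the sources used here. Art3, with 2.95 and 2.46 TPM, spans Cxcl10 and Cxcl11; 4.47% of the 31-base words of Cxcl10 occur in Art3 in reverse. The pseudogene Gm2673 overlaps Cxcl11 and holds 1550 of its 3790 words in reverse. Gm2673 had 0 counts in the gene table in both libraries, but 71.19 and 106.9 estimated counts in the second transcript table. Cxcl11 had 187.1 and 127.6 there. Zmynd15, with 9.09 and 6.23 TPM, overlaps the start of Cxcl16 and shares 522 of its 2819 words. Of the members, Cxcl11 had the largest part of its words in reverse in another gene, 41.8%, against 18.5% for Cxcl16. The part of this overlap in the values of Cxcl11 was not tested.

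After scaling of the counts by TMM, the members were close between the replicates except for Cxcl10. Of the 5 members with a mean count of at least 50, none differed beyond 2-fold, as against 1.18% of the 10088 genes at that count. Cxcl2 had 1154 normalised CPM in replicate 1 and 1133 in replicate 2, a log2 ratio of 0.03 with a 95% counting interval of -0.002 to 0.05. Cxcl1 had 346.9 and 337.2 normalised CPM, a log2 ratio of 0.04 (interval -0.01 to 0.09), and Cxcl16 had 298.1 and 306.2, a log2 ratio of -0.04 (interval -0.09 to 0.02). These 3 intervals include equality. Cxcl3 had 10.86 and 9.153 normalised CPM, with a log2 ratio of 0.24 whose interval of -0.06 to 0.56 also includes it.

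Cxcl10 had 234.9 normalised CPM in replicate 1 and 316.7 in replicate 2, a log2 ratio of -0.43 (interval -0.49 to -0.37) and a fold of 0.7419. It was lower in replicate 1 by more than counting error. Of all genes at that count 15.0% had a larger absolute ratio, so the difference lies within the ordinary spread between these libraries, whose median absolute ratio was 0.18. On the TPM scale the 2 libraries had nearly equal Cxcl10 while most genes were higher in replicate 1, which is the same difference seen on another scale. The input of RNA differed between the libraries, and its part in this was not tested.

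**Figure D3:**
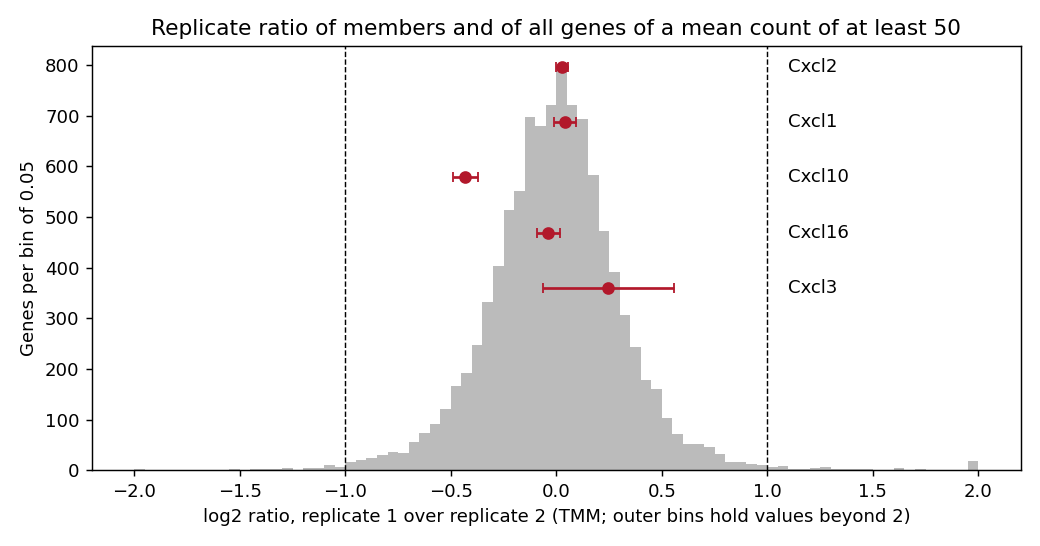
Histogram of the log2 ratio of replicate 1 over replicate 2 after TMM for the 10088 genes with a mean count of at least 50 (genes per bin up, log2 ratio across), with the 5 members above that count as red points at arbitrary height and their 95% counting intervals as bars. Dashed lines mark 2-fold. Cxcl10 lies at -0.43, left of the other 4, which lie between -0.04 and 0.24.

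Annotated transcripts with a retained intron took a sizeable part of Cxcl1, Cxcl2 and Cxcl10, as of many coding genes here, and less of Cxcl16. Cxcl2-201, the coding transcript, had 547.53 TPM in replicate 1 and 413.39 TPM in replicate 2, and the retained-intron transcript Cxcl2-203 had 238.3 and 168.4 TPM. A shorter retained-intron transcript, Cxcl2-204, had 83.34 and 45.98 TPM, from only 391.16 and 195.13 counts over an effective length of 192.6 and 182.7 bases. Together retained-intron transcripts were 35.4% and 32.4% of Cxcl2 TPM in replicates 1 and 2.

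Cxcl1-202, with a retained intron, had 102.93 and 69.65 TPM in replicates 1 and 2, beside 180.99 and 144.9 TPM for the coding Cxcl1-201. Its share was 36.3% and 32.5% of Cxcl1 TPM. Retained-intron transcripts made up 31.9% and 26.8% of Cxcl10 TPM, and 26.1% and 30.5% of Cxcl3 TPM. By counts, which weigh the longer intron-bearing transcripts more, the shares were 55.9% and 51.9% for Cxcl1, 45.0% and 42.9% for Cxcl2, 58.9% and 64.4% for Cxcl3, and 42.2% and 40.7% for Cxcl10. For Cxcl1 and Cxcl3 more counts were therefore assigned to the intron-bearing transcript than to the coding one.

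Cxcl16 is the only member with a transcript annotated for nonsense-mediated decay, so the others could show no such share. That transcript held 24.1% and 30.4% of Cxcl16 TPM, and one with a retained intron held 17.2% and 9.59%. The noncoding share of Cxcl16 was 41.3% in replicate 1 and 40.0% in replicate 2. Over 7263 coding genes with a noncoding transcript the median share was 33.0%, with quartiles of 15.5% and 52.1%. The retained-intron share of Cxcl16 depended on the table, at 40.4% and 31.1% in the second transcript table. There its retained-intron transcript had 2938 and 1879 estimated counts, against 816.4 and 333.68 in the first, while the nonsense-mediated decay transcript had 907.4 and 744.1, against 835.28 and 768.58.

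In the first table the mean retained-intron shares of Cxcl1, Cxcl2, Cxcl3 and Cxcl10 lay between the quartiles of coding genes in this fraction. That of Cxcl16 lay just under the lower quartile. In the first transcript table Cxcl1 and Cxcl2, of the 5 members with at least 1 TPM, exceeded a retained-intron share of 30% in both libraries, a threshold passed by 39.2% of the 5609 coding genes with such a transcript. In the second table Cxcl10, at 32.9% and 30.3%, and Cxcl16 exceeded it too, but shares were higher there in general. Over those genes the median share was 32.9% in the second table, with quartiles of 18.0% and 49.6%. In the first table it was 27.4%, with quartiles of 13.6% and 43.1%. The share of genes over 30% was not counted in the second table. In the first, lower shares than those of Cxcl1 and Cxcl2 were found in 61.6% and 60.8% of genes, against 53.1% for Cxcl10, 51.4% for Cxcl3 and 24.4% for Cxcl16. No cytoplasmic fraction is analysed here, and reads of an unspliced precursor and of a stable retained-intron RNA cannot be told apart in these tables.

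**Figure D4:**
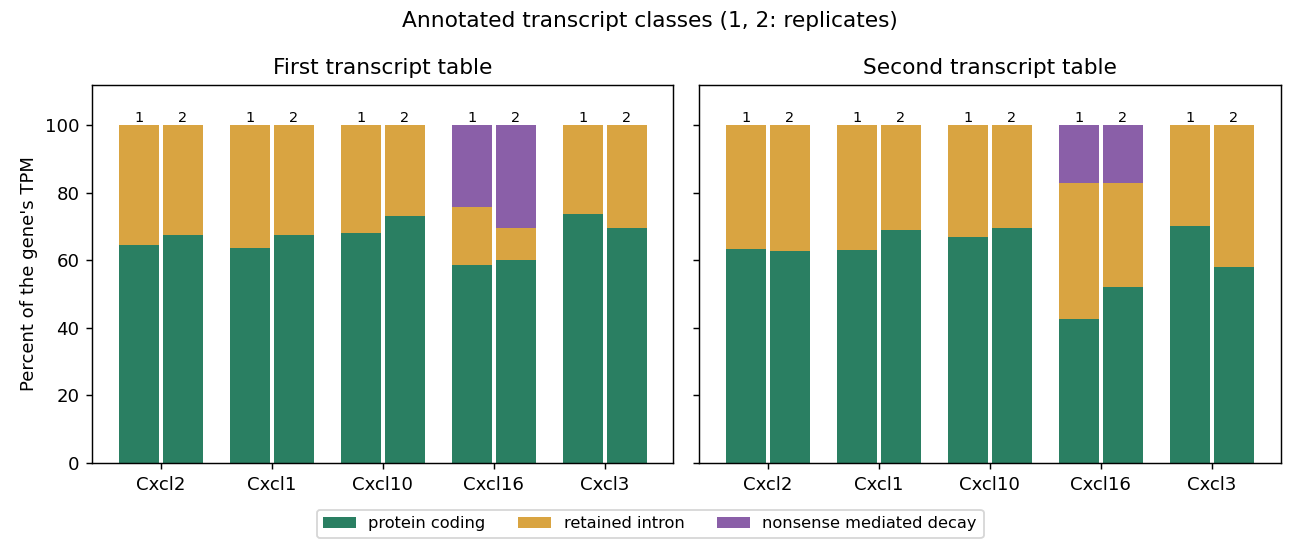
Share of each member's TPM in transcripts annotated as protein coding (green), retained intron (yellow) and nonsense-mediated decay (purple), for the 5 members at 1 TPM or more in each library, in the first transcript table (left) and the second (right). Bars 1 and 2 are the replicates. In the first table the green part lies between 58.7% for Cxcl16 and 73.9% for Cxcl3 in replicate 1.

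The second transcript table, made from the reads by another route, gave the same 5 members as the most abundant but more counts for the 3 lowest genes. Cxcl5 had 81.92 and 113.9 estimated counts there, against 1 and 0 in the gene table. Cxcl9 had 39.87 and 71.47 counts, against 3 and 5, and Cxcl11 had 187.1 and 127.6 counts, against 44 and 23. The ratio of second to first table was 54.9 and 229 for Cxcl5 after 0.5 was added to each count, 11.5 and 13.1 for Cxcl9, and 4.22 and 5.45 for Cxcl11, where the median coding gene had 1.32 and 1.64.

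For Cxcl1, Cxcl2, Cxcl3, Cxcl10 and Cxcl16 the ratio lay between 1.09 and 1.84. The 3 low members are the ones more than 2-fold above the median in both libraries, as were 26.9% of the 14109 coding genes with at least 10 counts in the second table. Among the 5160 of these with fewer than 50 counts in the first table the share was 66.2%, a figure raised by the selection itself, which uses both counts of the ratio. This comparison was chosen after its values were seen. With the second table, Cxcl5 at 0.7616 and 1.251 TPM stood above Cxcl9 at 0.192 and 0.3979 TPM in both libraries, the reverse of the gene table.

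Short AU-rich elements lie in the 3′ untranslated regions of the members, and windows are shown because the count of the pentamer ATTTA, a core of elements bound by the decay factor tristetraprolin (Zfp36), differed widely among the members. Each window is 30 bases of the coding transcript in GENCODE M21 with ATTTA in capitals.
Cxcl2: ATTTATTTAtctatgtATTTATTTATTTAt
Cxcl1: tcctATTTATTTAtgtATTTATTTAttcca
Cxcl3: gcatcttATTTAatgtttATTTAatatcaa
Cxcl10: gtaagactacaaATTTAagtttgtaaggac
Cxcl2 had 11 such pentamers, Cxcl1 7, Cxcl3 and Cxcl5 5 each, Cxcl9 3, Cxcl10 and Cxcl16 2 each, and Cxcl11 1. Per kb of 3′ untranslated region this is 15.0 for Cxcl2, 11.8 for Cxcl1, 7.75 for Cxcl3, 4.5 for Cxcl5 and at most 2.74 for the other 4. The median of 8261 expressed coding genes was 1 pentamer, or 1.35 per kb, and 95.2% of them had fewer than Cxcl2 and 87.5% fewer than Cxcl1. For Cxcl3 and Cxcl5 the share with fewer was 79.2%, as 20.8% of the expressed genes had at least 5. A pentamer is a match of letters and not a measured site. Among the CXCR3 ligands the abundant Cxcl10 had fewer pentamers than Cxcl9. Per kb that order was reversed, with 2.74 for Cxcl10, 1.22 for Cxcl9 and 0.821 for Cxcl11. The comparison of these genes therefore depends on the unit.

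Promoter windows of RefSeq on GRCm38.p6 were present for 5 of the 8 members (Cxcl1, Cxcl2, Cxcl3, Cxcl9 and Cxcl10). They were searched on both strands, over 250 bases before the start, for the κB pattern GGGNNNTTCC and for the core of the interferon-stimulated response element, GAAANNGAAA. The windows are printed on the gene's strand with the match in capitals, and are shown because the same match recurs in several members.
Cxcl2, chr5:90903792-90903821: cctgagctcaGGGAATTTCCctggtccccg
Cxcl1, chr5:90891164-90891193: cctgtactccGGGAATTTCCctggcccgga
Cxcl3, chr5:90786018-90786047: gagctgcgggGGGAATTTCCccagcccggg
Cxcl10, chr5:92349029-92349058: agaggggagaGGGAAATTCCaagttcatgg
Cxcl10 interferon element, chr5:92349083-92349112: tcacgctttgGAAAGTGAAActtacctcac
The κB pattern occurred in 4 of the 5 members, at 2 places in each of them once overlapping matches were joined, and in 4.65% of 32851 promoters. Cxcl1, Cxcl2 and Cxcl3 carried the same 10 letters, 71, 97 and 73 bases before the start. Whole promoters were not compared, and the part of these letters in the levels was not tested. The interferon element was found in Cxcl10 alone of the 5, 213 bases before the start, and in 2.98% of promoters. Neither pattern was in the Cxcl9 window, which says only that these letters are absent there.

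Genes that act with the chemokines were present to different degrees. All 11 listed regulators reached 10 TPM in each library. Nfkbiz, an atypical IκB protein that works with NF-κB, had 366.86 TPM in replicate 1 and 250.77 TPM in replicate 2. Nfkb1, a subunit of NF-κB, had 266.56 and 198.38 TPM, and Zfp36, which destabilises AU-rich mRNAs, had 251.56 and 217.58 TPM. These 3 lay between Cxcl10 and Cxcl2 in each library.

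Irf1, an interferon regulatory factor, had 351.93 TPM in replicate 1 and 148.99 TPM in replicate 2, the most uneven of the regulators. Cxcl10 had 197.6 and 191.4 TPM, and after TMM it was lower in replicate 1, as given above. No link between Irf1 and Cxcl10 was tested. Adam17, a shedding protease, had 112.8 and 60.33 TPM, and Adam10, which is known to shed CXCL16, had 13.93 and 12.54 TPM. Irf3 had 51.81 and 34.77 TPM, Rela 46.61 and 32.79 TPM, Zfp36l1 47.38 and 35.03 TPM, and Elavl1 13.12 and 11.75 TPM.

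Of the 8 CXC receptors listed, which include receptors of other ligands, most were under 1 TPM in each library in the gene table. Cxcr6, with 68 and 79 counts, and Cxcr3 were low but above the floor of 3 counts. Cxcr4, the receptor of CXCL12, had 19.3 and 15.68 TPM, and Cxcr6, the receptor of CXCL16, had 1.64 and 2.01 TPM in replicates 1 and 2. These were the only 2 of 8 receptors at 1 TPM or more in each library, while Cxcr1, Ackr1 and Ackr3 had 0 counts in the gene table. In the second table Ackr3 had 6 and 8 estimated counts. Of the others, Cxcr2, through which the ELR members act, had 1 and 0 counts in the gene table, against 237.9 and 259.7 estimated counts in the second transcript table, so its level depends on the table. Cxcr3, the receptor of Cxcl9, Cxcl10 and Cxcl11, had 44 and 27 counts. Of the 7 other CXC ligands 6 were under 1 TPM in each library and Pf4 was the exception.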

How the data were processed

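Ribosome-depleted total RNA-seq of 2 libraries of 1 group was analysed, on mm10 with GENCODE M21 per the file headers; which aligner and quantifiers were run, and how strand was counted, is not given in the sources used here. Expected counts (estimated, not whole, not normalised) and TPM per gene and per transcript, with posterior SDs of the counts, were deposited by the authors, as was a second transcript table of estimated counts and TPM, summed here per gene. All 55536 mouse gene entries matched GENCODE M21; other entries (0.662% and 0.232% of counts) were left out. No column of another series was used.

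The members and gene lists were chosen with earlier results of these data known. All 8 members are named; of other ligands, receptors and regulators, genes at 1 TPM or more in each library, and otherwise those the text singles out after their values were seen. The values of 1 listed regulator are not reported here. For replicate ratios, expected counts were rounded, scaled by TMM in edgeR 4.0.16 (R 4.3.3) for genes whose mean count reached 50, and compared after 0.5 was added. No dispersion or test was fitted. In simulated data of 10088 genes with 200 changed, all genes changed by a log2 of 2 passed 2-fold (100%), as did 95.9% of those changed by 1.5 and 0.354% of unchanged genes. The simulated spread was a fixed value not fitted to these libraries, in which 1.18% of genes passed 2-fold. The simulation checks the calculation and gives no error rate for the replicate ratios. DESeq2 1.42.0 size factors were an alternative. Sequences were searched with Biopython 1.88; 5 of 8 members were in the RefSeq promoter table. Depth was 21256531 and 15643649 expected counts, and 3 counts correspond to 0.142 and 0.192 CPM. Replicates are labelled biological but share a donor label.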

Additional observations from a re-analysis of the deposited data

How the results depend on the processing

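Each difference between neighbours, and that between groups of members, had the same sign in both libraries. Leaving out either replicate only restates the value of the other and is no further check. With CPM in place of TPM, Cxcl2 minus Cxcl1 was 1.74, Cxcl16 minus Cxcl3 4.79, Cxcl3 minus Cxcl11 1.99 and Cxcl11 minus Cxcl9 1.17, and Cxcl10 minus Cxcl16 turned to -0.15, with opposite signs in the 2 libraries; CPM does not divide by length. With the second transcript table, Cxcl2 minus Cxcl1 was 1.59, Cxcl10 minus Cxcl16 0.24, Cxcl3 minus Cxcl11 0.45 and ELR members minus CXCR3 ligands 2.96, and Cxcl9 minus Cxcl5 turned to -0.63; the cause was not tested. With a pseudocount of 0.1, Cxcl16 minus Cxcl3 was 4.51, Cxcl3 minus Cxcl11 2.40, Cxcl11 minus Cxcl9 1.14, Cxcl9 minus Cxcl5 1.95 and the difference between the groups 5.19; with members of at least 1 TPM it was 0.34. Genes beyond 2-fold between replicates were 119 with DESeq2 size factors as with TMM, 620 at a mean count of at least 10, 5740 with no filter and 569 in the second table. The replicate ratio of Cxcl3 was 0.24 in the gene table and -0.14 in the second, and that of Cxcl16 was -0.04 and 0.03. Counting error in the gene table is wide for Cxcl5, Cxcl9 and Cxcl11, whose counts also differ between the tables. No paired analysis was possible because there is only 1 group.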

Other observations

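The authors deposited an interval for each posterior TPM, whose level is not stated in the sources used here. For Cxcl2 it ran from 852.9 to 883.5 in replicate 1 and from 616.9 to 642.8 in replicate 2, under the deposited TPM of 909.18 and 662.52. For Cxcl1 it ran from 264.4 to 278.2 and from 197.7 to 210.1, also under the TPM of 283.92 and 214.54. The TPM and the interval are therefore not centred on the same estimate, and the intervals were not used as errors of the levels.

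With the TPM rescaled to the sum over coding genes, Cxcl2 was at 3576 in replicate 1 and 3525 in replicate 2, and Cxcl1 at 1117 and 1141. Cxcl16 was at 526.3 and 550.7 and Cxcl10 at 777.1 and 1018 on that scale. The first 3 genes were nearly equal between libraries, whereas Cxcl10 was lower in replicate 1, as on the TMM scale. Summed over the 8 members, the level was 2088 and 2063 CPM in the gene table, against 1532 and 1177 TPM.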
